A study of Mus musculus with 9 samples.

Results

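The tumor necrosis factor (TNF) superfamily is described here through 10 genes, chosen by symbol among the 24346 gene symbols measured. They were 8 ligands (Tnf, Ltb, Tnfsf9, Tnfsf10, Tnfsf12, Tnfsf13, Tnfsf13b and Tnfsf14) and the receptors Tnfrsf1a and Tnfrsf1b, and all 10 were present in the data. RNA was sequenced from 9 samples of macrophages sorted from the lungs of female C57BL/6 mice at postnatal week 10, with 3 samples in each of 3 groups. Ctrl-AM were alveolar macrophages (AMs) of control mice that received vehicle. Tumor-AM were AMs of mice whose left lung had been injected with LLC-tdTomato, Lewis lung carcinoma cells with a red fluorescent protein, suspended in PBS and Matrigel. Tumor-macrophage were tumor-associated macrophages (TAMs) of such mice. All were sorted as CD45+ autofluorescent cells, AMs as Siglec-F+ and TAMs as Siglec-F- F4/80+ CD11b+. The lungs were not perfused before they were digested. Control and tumor-bearing mice were bred separately, so breeding and tumor cannot be told apart. The samples of a population came from separate mice, so p-values measure the spread between mice. Whether AMs and TAMs came from the same tumor-bearing mice is not given in the sources used here.

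TNF superfamily ligands are mostly made as trimers on the cell surface, and several are cut off the membrane to act at a distance. Their receptors pass the signal on through adaptor proteins to the transcription factor NF-kB and to kinases that promote survival, and the receptors with a death domain can also start apoptosis or necroptosis. In the lung, macrophages are a well-known source of TNF, and the family members BAFF (Tnfsf13b) and APRIL (Tnfsf13) are best known as survival factors for B cells and plasma cells.

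Levels are given as FPKM, fragments scaled to the length of the transcript and the depth of the library, so that they can be compared between genes. Estimated depth was 10100000 to 12700000 reads per library. Relative depth ran from 0.907 to 1.14, with the first Ctrl-AM library set to 1. Markers separated AMs from TAMs as they were sorted. The summed FPKM of 7 AM markers (Siglecf, Pparg, Marco, Car4, Fabp4, Chil3 and Itgax) was 24523 to 30165 in the Ctrl-AM samples, 21639 to 38572 in those of Tumor-AM and 216 to 518 in Tumor-macrophage. The sum of 6 markers of monocyte-derived macrophages (Ccr2, Cx3cr1, Ly6c2, Itgam, C1qa and Adgre1) was 139 to 158, 141 to 152 and 2818 to 2956 FPKM. No AM library stood on the side of the TAMs, or the reverse. In AMs each sum was mostly a single gene. Chil3 had means of 25739 (Ctrl-AM) and 26233 FPKM (Tumor-AM), and Adgre1 had 138 and 119. Among the 6 markers, 4 rose in Tumor-AM compared with Ctrl-AM (limma adjusted p under 0.05, with 7.11% of all genes higher and 3.18% lower). Their mean FPKM went from 1.59 to 4.17 (Ccr2), 5.25 to 7.8 (Ly6c2), 1.17 to 4.2 (Itgam) and 2.61 to 9.79 (C1qa). Cx3cr1 and Adgre1 did not pass. Of the 7 AM markers, 0 were higher and 1 was lower in the same comparison, Pparg (mean of 202 to 140 FPKM, limma adjusted p = 0.00455).

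The ligands of Tumor-macrophage were different from those of the AMs. Compared with Tumor-AM, 4 ligands were higher (Tnfsf9, Tnfsf13b, Tnfsf14 and Tnfsf12), and Tnfsf13 was lower. In Tumor-AM compared with Ctrl-AM both receptors among the 10 genes were higher, Tnfrsf1b by 0.74 ± 0.13 and Tnfrsf1a by 0.28 ± 0.07 on the log2 scale. The call of Tnfrsf1a was lost when any 1 of the libraries compared was left out. Of 17 other TNF superfamily receptors tested, described below, 1 passed the threshold by limma. Of the 7 ligands tested, 0 passed it. Among all genes tested, 7.11% were called higher and 3.18% lower, so both counts are near the share of all genes. At an unadjusted p under 0.05, 1 of these ligands (Tnf) passed, and the share of all genes at that level was not counted. Changes are differences of log2(FPKM + 1) with their standard error after the sign ±, a scale that understates the change of low genes, and the threshold was a Benjamini-Hochberg adjusted p of 0.05 in limma over 10686 genes with at least 1 FPKM in at least 3 samples. The filter on low values passed 9 of the 10 genes and removed Tnfsf10.

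Of the 9 genes tested, 2 passed the threshold upwards in Tumor-AM compared with Ctrl-AM and 0 downwards, where 7.11% of all genes tested were called higher and 3.18% lower. In Tumor-macrophage compared with Tumor-AM, 4 were higher and 1 lower, against 24.2% and 24.4% of all genes. In Tumor-macrophage compared with Ctrl-AM, 5 were higher and 1 lower, against 27.7% and 27.1% of all genes. The median log2 changes of the 9 genes were 0.05, 0.48 and 0.94 in these comparisons, and those of all genes were 0.01, 0.00 and -0.01. With values rescaled to the same sum in every library (TPM), the median of all genes was -0.10 in Tumor-AM compared with Ctrl-AM and -0.22 in Tumor-macrophage compared with Ctrl-AM, and the genes called split into 468 higher and 841 lower and into 2120 higher and 4422 lower, instead of 760 and 340 and 2960 and 2900. In Tumor-macrophage compared with Tumor-AM they split into 2118 and 3121 instead of 2588 and 2603. Tnfrsf1b was higher in Tumor-AM than Ctrl-AM on that scale too (0.60, limma adjusted p = 0.0121). The last comparison shares its samples with the other two and adds no independent measurement.

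**Figure D1:**
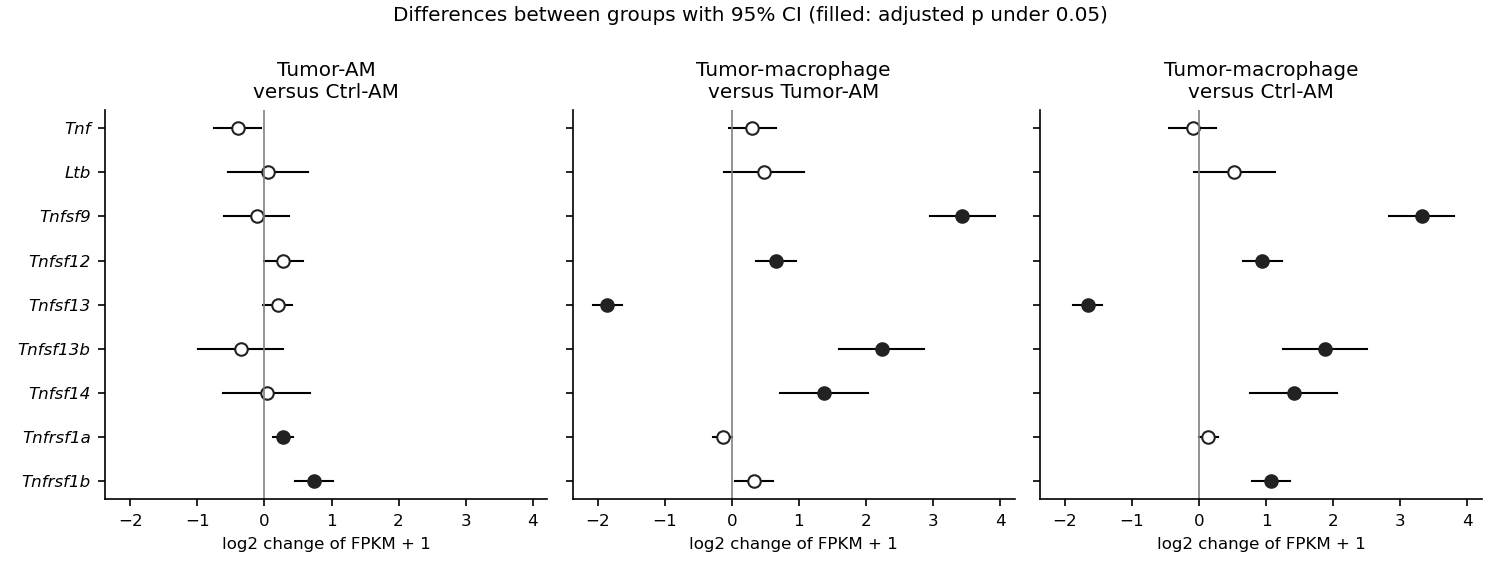
Log2 change of FPKM + 1 (x axis) of the 9 genes tested (y axis) in each of the 3 comparisons, with 95% confidence intervals from limma; filled points have an adjusted p under 0.05. In the left panel the filled points are Tnfrsf1a and Tnfrsf1b, and in the other panels Tnfsf9 lies farthest to the right and Tnfsf13 is the filled point left of 0.

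Tnf encodes TNF itself, the founding cytokine of the family. It was 35.7, 35.2 and 38.6 FPKM in the Ctrl-AM samples, 27.3, 36.4 and 20.6 in those of Tumor-AM and 33.4, 33.8 and 35.0 in Tumor-macrophage. The Tumor-AM samples were the most uneven, with 2 of 3 below every other library and 1 within the range of Ctrl-AM. The log2 change was -0.40 ± 0.16 in Tumor-AM compared with Ctrl-AM (95% CI -0.75 to -0.05, limma adjusted p = 0.148), 0.31 ± 0.16 in Tumor-macrophage compared with Tumor-AM (limma adjusted p = 0.138) and -0.10 ± 0.16 in Tumor-macrophage compared with Ctrl-AM (95% CI -0.45 to 0.26, limma adjusted p = 0.636). The side of the threshold depended on 1 library, since without Tumor-AM 2 the first change was -0.60 (limma adjusted p = 0.0128) and the second was 0.50 (limma adjusted p = 0.00547). An estimated 420 to 803 reads per library lay behind these values. The part of counting error in the spread in Tumor-AM was not tested. In all groups Tnf was an abundant transcript, at percentile 79.0 of the genes tested in the Ctrl-AM samples, 74.2 in those of Tumor-AM and 77.7 in Tumor-macrophage.

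The Tnf messenger RNA is known to be short-lived because proteins bind AU-rich elements after its stop codon. The 30 bases richest in these elements are printed because the genes for such proteins are described below. They lie on the minus strand at chr17:35199678-35199707 (GRCm38), in the 3′ untranslated region of Tnf, and the capitals mark overlapping copies of the nonamer TTATTTATT.
Tnf: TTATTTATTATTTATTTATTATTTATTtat
Tnf had 5 copies in the 764 bases after its stop codon, not all of them complete within the 30 bases printed. Of 21105 protein-coding genes, 42 (0.199%) had at least as many. Of the other 9 genes described here, only Tnfsf13b held a copy (1, in 3631 bases), while 7.59% of all genes had at least 1 (longest 3′ end of each gene in GENCODE vM21). The letters are a description of the sequence and show no binding.

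TNF signals through Tnfrsf1a, the receptor with a death domain that most cells carry, and Tnfrsf1b, a receptor without one that is found mainly on immune cells. Tnfrsf1b was 58.5, 64.3 and 62.3 FPKM in the Ctrl-AM samples, 111, 95.1 and 106 in those of Tumor-AM and 151, 103 and 142 in Tumor-macrophage. Every sample from tumor-bearing mice was above every Ctrl-AM sample, whereas Tumor-AM and Tumor-macrophage overlapped. The log2 change was 0.74 ± 0.13 in Tumor-AM (limma adjusted p = 0.00565) and 1.07 ± 0.13 in Tumor-macrophage (limma adjusted p = 4.27e-05), each compared with Ctrl-AM. Between Tumor-macrophage and Tumor-AM the change was 0.33 ± 0.13 (95% CI 0.04 to 0.61), with a limma adjusted p of 0.0577. Without Tumor-macrophage 2 it was 0.49 (limma adjusted p = 0.00109). Of the 6 markers of monocyte-derived macrophages, 4 were also higher in Tumor-AM than in control AMs (limma, with 7.11% of all genes higher). The part of such cells or markers in the level of Tnfrsf1b was not tested.

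Tnfrsf1a was 97.7, 97.3 and 91.2 FPKM in the Ctrl-AM samples, 113, 121 and 113 in those of Tumor-AM and 106, 109 and 100 in Tumor-macrophage. The 3 groups did not overlap, and they lay close together. It was higher in AMs of tumor-bearing mice than in control AMs by 0.28 ± 0.07 on the log2 scale (limma adjusted p = 0.026), a call that was lost when any 1 of the 6 libraries compared was left out (limma adjusted p of 0.0524 to 0.114) and with 3 other settings. The changes of -0.14 ± 0.07 in Tumor-macrophage compared with Tumor-AM (limma adjusted p = 0.11) and of 0.14 ± 0.07 compared with Ctrl-AM (limma adjusted p = 0.101) did not pass the threshold, but after rescaling to TPM the former was -0.23 and passed (limma adjusted p = 0.0188), and the sign of the latter turned (-0.10). The ratio of Tnfrsf1b to Tnfrsf1a within a library, which does not depend on the scaling, was 0.648 ± 0.044 in the Ctrl-AM samples, 0.902 ± 0.105 in those of Tumor-AM and 1.26 ± 0.271 in the TAM samples (SD, n = 3). The samples of Ctrl-AM (0.599 to 0.684) lay below all others, and those of Tumor-AM (0.784 to 0.985) overlapped with Tumor-macrophage (0.951 to 1.42).

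**Figure D2:**
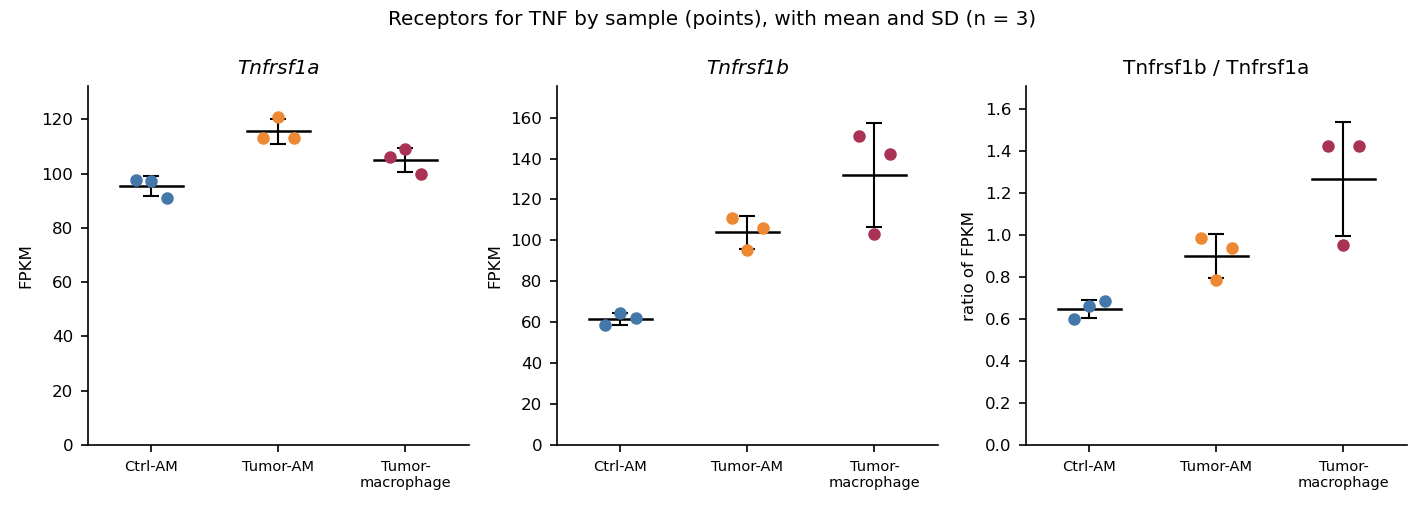
FPKM of Tnfrsf1a and Tnfrsf1b and their ratio (y axes) in the 3 groups (x axis); points are samples, horizontal lines are means and bars are SD (n = 3). Tnfrsf1a runs from 91.2 to 121 FPKM over all samples, and Tnfrsf1b from 58.5 in Ctrl-AM to 151 in Tumor-macrophage.

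Tnfsf9 encodes the ligand of CD137, a costimulatory receptor of T cells and natural killer cells. It was 2.23, 2.16 and 2.17 FPKM in the Ctrl-AM samples, 0.930, 2.34 and 2.93 in those of Tumor-AM and 32.4, 28.1 and 32.1 in Tumor-macrophage. All Tumor-macrophage samples were far above all AM samples, and the AM groups overlapped. The log2 change was 3.44 ± 0.22 in Tumor-macrophage compared with Tumor-AM (limma adjusted p = 3.56e-07) and 3.32 ± 0.22 compared with Ctrl-AM (limma adjusted p = 3.57e-07), whereas it was -0.12 ± 0.22 in Tumor-AM compared with Ctrl-AM (95% CI -0.60 to 0.37, limma adjusted p = 0.796). The increase in Tumor-macrophage was the largest among the 9 genes in both comparisons. An antisense gene, Gm11110, covers 14.9% of the exonic bases of Tnfsf9, and without strand information reads there cannot be told apart. Gm11110 was listed at 0 to 1.82 FPKM.

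Tnfsf13b encodes BAFF, a survival factor of B cells. Its level was 4.21, 7.13 and 3.59 FPKM in the Ctrl-AM samples, 4.23, 1.82 and 5.29 in those of Tumor-AM and 20.7, 21.1 and 19.2 in Tumor-macrophage. The lowest TAM sample was well above the highest AM sample, and the AM groups overlapped. The change was 2.24 ± 0.28 compared with Tumor-AM (log2, limma adjusted p = 7.52e-05) and 1.88 ± 0.28 compared with Ctrl-AM (limma adjusted p = 0.000227). Between the AM groups it was -0.36 ± 0.28 (95% CI -0.99 to 0.27, limma adjusted p = 0.494).

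Tnfsf14 encodes LIGHT, which binds the herpesvirus entry mediator (Tnfrsf14) and the lymphotoxin beta receptor (Ltbr). It was low in AMs, at 0.196, 0.902 and 0.859 FPKM in the Ctrl-AM samples and 0.104, 1.54 and 0.615 in those of Tumor-AM, and 3.41, 4.05 and 2.56 FPKM in Tumor-macrophage. The TAM samples were above all AM samples. The log2 change was 1.38 ± 0.29 compared with Tumor-AM (limma adjusted p = 0.00267) and 1.41 ± 0.29 compared with Ctrl-AM (limma adjusted p = 0.00202). An estimated 2 to 32 reads per library in AMs and 53 to 78 in TAMs lay behind these values, so the size of this change is less certain than that of Tnfsf9. In Tumor-AM compared with Ctrl-AM the change was 0.03 ± 0.29 (95% CI -0.62 to 0.68, limma adjusted p = 0.966), and its sign differed between scalings.

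Tnfsf12 encodes TWEAK, which binds the receptor Fn14 (Tnfrsf12a). It was 8.63, 6.16 and 7.28 FPKM in the Ctrl-AM samples, 8.01, 9.40 and 9.96 in those of Tumor-AM and 16.3, 15.1 and 13.5 in Tumor-macrophage. The TAM samples were again above all AM samples. The log2 change was 0.66 ± 0.13 compared with Tumor-AM (limma adjusted p = 0.00178), 0.94 ± 0.13 compared with Ctrl-AM (limma adjusted p = 0.00013), and 0.28 ± 0.13 in Tumor-AM compared with Ctrl-AM (95% CI -0.01 to 0.57, limma adjusted p = 0.22).

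Tnfsf13 encodes APRIL, which acts on B cells and plasma cells through the receptors TACI and BCMA. It was the most abundant of the 8 ligands in AMs, with 107, 112 and 122 FPKM in the Ctrl-AM samples and 125, 129 and 137 in those of Tumor-AM, and was 35.5, 30.6 and 40.1 FPKM in Tumor-macrophage. No TAM sample came near the AM samples, and in FPKM all Tumor-AM samples were above all Ctrl-AM samples. Tnfsf13 was lower in Tumor-macrophage by a log2 change of -1.86 ± 0.10 compared with Tumor-AM (limma adjusted p = 9.17e-08) and of -1.66 ± 0.10 compared with Ctrl-AM (limma adjusted p = 1.46e-07). The change of 0.19 ± 0.10 between the AM groups did not pass the threshold (95% CI -0.02 to 0.41, limma adjusted p = 0.253). It depended on the scaling and was 0.06 after rescaling to TPM (limma adjusted p = 0.724).

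Tnfsf12 and Tnfsf13 are neighbours on chromosome 11, with 465 bases between them on the same strand (GRCm38, GENCODE vM21), and a read-through gene, Tnfsfm13, spans both. Of their exonic bases, 48.3% and 60.0% are shared with Tnfsfm13, so how reads were divided among the 3 genes is uncertain. Tnfsfm13 itself was 8.46, 8.22 and 6.88 FPKM in the Ctrl-AM samples, 9.05, 10.8 and 10.5 in those of Tumor-AM and 16.1, 13.3 and 11.2 in Tumor-macrophage. The sum of the 3 genes was 124 to 136 FPKM in the Ctrl-AM samples, 142 to 157 in those of Tumor-AM and 59.0 to 67.9 in Tumor-macrophage. The sum was thus lower in Tumor-macrophage as well, in every sample. Tnfsfm13 and Tnfsf12 were both highest there, and the part of shared reads in the increase of Tnfsf12 was not tested.

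Ltb encodes lymphotoxin beta, which holds lymphotoxin alpha on the membrane and is known mainly from lymphocytes. It was 1.65, 3.30 and 1.53 FPKM in the Ctrl-AM samples, 1.75, 1.62 and 3.46 in those of Tumor-AM and 4.25, 2.37 and 3.88 in Tumor-macrophage, on an estimated 21 to 51 reads per library. The groups overlapped. The changes of 0.05 ± 0.27, 0.48 ± 0.27 and 0.53 ± 0.27 in the 3 comparisons did not pass the threshold (log2, limma adjusted p of 0.935, 0.172 and 0.121), and those of Tumor-macrophage passed it when 1 library was left out (0.72 without Tumor-AM 3, limma adjusted p = 0.0482, and 0.77 without Ctrl-AM 2, limma adjusted p = 0.0346). Most markers of lymphocytes were also highest in Tumor-macrophage. The summed FPKM of 4 B cell markers (Cd79a, Cd79b, Ms4a1 and Pax5) was 9.63 to 15.0 in the Ctrl-AM samples, 2.86 to 5.88 in those of Tumor-AM and 28.7 to 49.6 in Tumor-macrophage, and Pax5 was listed at 0 in all Tumor-AM samples. That of 5 T cell markers (Cd3e, Cd3d, Cd3g, Cd8a and Lck) was 3.46 to 5.49, 4.8 to 11.4 and 11.3 to 21.3 FPKM. With Cd2, a further T cell marker left out of this sum after its values were seen, it was 494 to 521, 406 to 476 and 20.8 to 42.3 FPKM, that is, highest in the AMs. Their part in the level of Ltb was not tested, and in bulk samples more cells of a type and more RNA per cell cannot be told apart.

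Tnfsf10 encodes TRAIL, a ligand that can start apoptosis. It was 0.550, 0.708 and 0.663 FPKM in the Ctrl-AM samples, 0.456, 0.657 and 0.832 in those of Tumor-AM and 1.06, 0.849 and 0.778 in Tumor-macrophage, and was not tested because of the filter on low values. With no filter its changes were 0.00, 0.21 and 0.21 on the log2 scale (limma adjusted p of 1, 0.21 and 0.183). The 95% confidence interval of both changes of Tumor-macrophage ran from -0.04 to 0.45, on an estimated 24 to 54 reads per library.

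**Figure D3:**
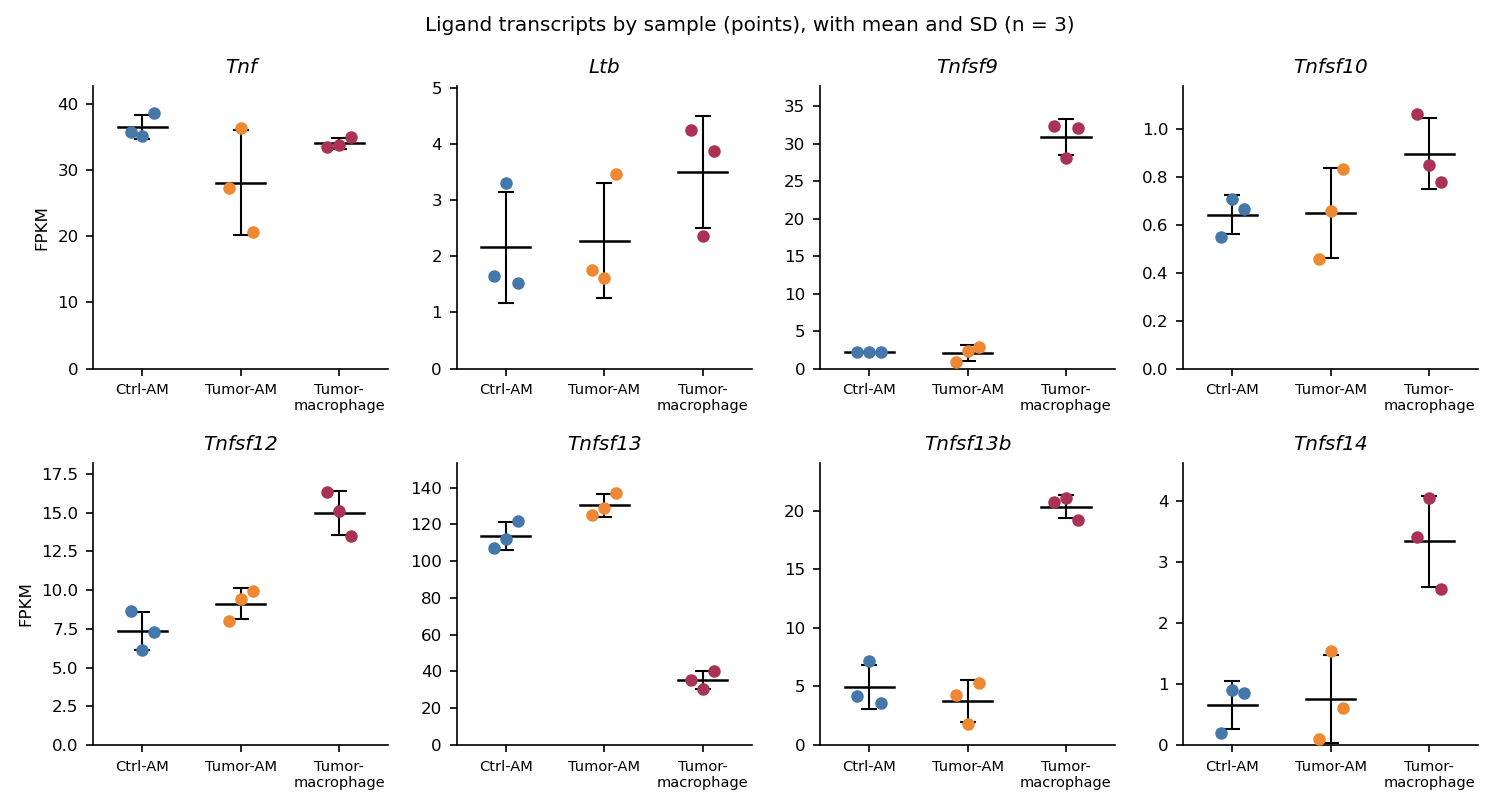
FPKM (y axes, each with its own scale from 0) of the 8 ligands in the 3 groups (x axes); points are samples, horizontal lines are means and bars are SD (n = 3). In Tnfsf9, Tnfsf12, Tnfsf13b and Tnfsf14 the Tumor-macrophage points lie above all AM points, in Tnfsf13 they lie below (30.6 to 40.1 compared with 107 to 137 FPKM), and in Tnf, Ltb and Tnfsf10 groups overlap.

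The order of the ligands by level changed with the population. In Ctrl-AM the order was Tnfsf13 (114 ± 7.36), Tnf (36.5 ± 1.83), Tnfsf12 (7.36 ± 1.24), Tnfsf13b (4.98 ± 1.89), Tnfsf9 (2.19 ± 0.038), Ltb (2.16 ± 0.988), Tnfsf14 (0.652 ± 0.396) and Tnfsf10 (0.64 ± 0.0814 FPKM, SD, n = 3). The samples of Tnfsf12 and Tnfsf13b, of Tnfsf9 and Ltb, and of Tnfsf14 and Tnfsf10 overlapped. In Tumor-macrophage 3 ligands stood close together, Tnfsf13 at 35.4 ± 4.76, Tnf at 34.1 ± 0.819 and Tnfsf9 at 30.9 ± 2.41 FPKM. The samples of Tnfsf13 overlapped with those of Tnf and Tnfsf9. Below them came Tnfsf13b at 20.4 ± 0.972 and Tnfsf12 at 15 ± 1.42 FPKM. As a share of the summed FPKM of the 8 ligands, Tnfsf13 made up 67.6% in the Ctrl-AM samples, 73.6% in those of Tumor-AM and 24.6% in Tumor-macrophage (means of 3 samples). Tnfsf9 made up 1.3%, 1.15% and 21.5%, and Tnfsf13b 2.97%, 2.15% and 14.2%. The sum itself differed less, at 168.2, 177 and 143.4 FPKM.

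**Figure D4:**
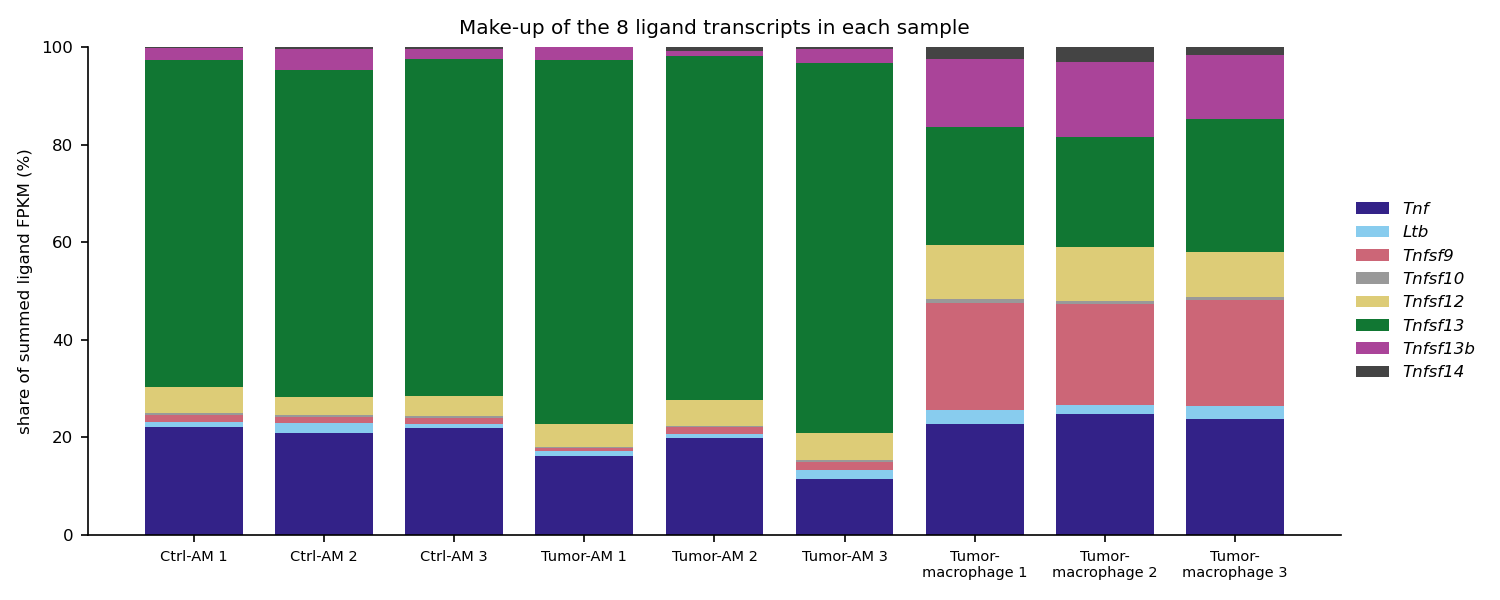
Share of each ligand in the summed FPKM of the 8 ligands (y axis, %) in each of the 9 samples (x axis). Tnfsf13 makes up most of each bar in the 6 AM samples, and in the 3 Tumor-macrophage samples Tnf, Tnfsf9 and Tnfsf13 have similar shares (means of 23.8%, 21.5% and 24.6%).

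Several of these genes sit in clusters (GRCm38, GENCODE vM21). On chromosome 17 lie Ltb (chr17:35194439-35196320, plus strand), Tnf (chr17:35199381-35202007, minus strand), Tnfsf9 (chr17:57105325-57107757, plus strand) and Tnfsf14 (chr17:57189492-57194177, minus strand). Chromosome 11 holds Tnfsf13 (chr11:69682846-69685784) and Tnfsf12 (chr11:69686250-69695849), both on the minus strand. The others lie apart, Tnfsf10 at chr3:27317028-27342427 (plus strand), Tnfsf13b at chr8:10006467-10039072 (plus strand), Tnfrsf1a at chr6:125349362-125362484 (plus strand) and Tnfrsf1b at chr4:145213463-145246870 (minus strand). Tnf and Ltb are 3060 bases apart on chromosome 17, with Lta (lymphotoxin alpha) 1157 bases from Tnf, and Tnfsf9 and Tnfsf14 lie 81734 bases apart on the same chromosome with Cd70 between them. Neighbours did not share a level. Lta was listed at 0 in all Ctrl-AM samples and at no more than 0.459 FPKM elsewhere, beside Tnf at 20.6 to 38.6, and Cd70 was at most 0.273 FPKM in any sample, while both genes beside it were higher in Tumor-macrophage. The stretches of 250 bases before the start site were searched for a few known motifs, since members of 1 family moved in opposite directions in the same cells. RefSeq (GRCm38.p6) held such a window for 8 of the 10 genes (not for Tnfsf9 and Tnfsf12). The AP-1 letters TGANTCA, searched on both strands, were found in 3 of these 8 genes, Tnfsf13, Tnfsf13b and Tnfsf14, compared with 7.82% of all genes with a window. The 30 bases around each are given 5′ to 3′ on the strand of the gene, with the motif in capitals. They lie at chr11:69685669-69685698 (minus strand), chr8:10006495-10006524 (plus strand) and chr17:57194323-57194352 (minus strand), the first 2 within an exon annotated in GENCODE and the third upstream of the gene.
Tnfsf13: tcattcatgccTGAGTCAgagtctaccaca
Tnfsf13b: cttgtctggagTGAGTCAgtctgaacccca
Tnfsf14: tccatcccaccTGAGTCAcattttctggaa
Tnfsf13, which was lower in TAMs, and 2 genes that were higher held the same 7 letters, and their part in these levels was not tested. For Tnfsf13b, RefSeq held 2 windows, and the letters were in window 2 and not in window 1. The NF-kB consensus was found in 1 of the 8, Ltb, at chr17:35194410-35194439 (plus strand), upstream of the gene, where the consensus reads on the opposite strand, and in 8.23% of all genes.
Ltb: aagggtgttcGGAAAGTCCCcgggcagggg
The PU.1 letters GAGGAAGT were in 0 of the 8 and in 2.79% of all genes. A match is a description of the sequence and shows no binding.

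The receptors for these ligands were read from a list of 26 other TNF superfamily receptors. Of them, 17 passed the filter, and in Tumor-macrophage compared with Tumor-AM 6 were higher and 7 lower, where 24.2% and 24.4% of all genes were called higher and lower. The largest increases were those of Cd40 (log2 change 4.67), an activating receptor of antigen-presenting cells, Tnfrsf14 (3.22), a receptor of LIGHT, and Tnfrsf11a (1.64), the receptor RANK. The largest decreases were those of Tnfrsf26 (-2.29), Tnfrsf18 (-1.78), the receptor GITR, and Tnfrsf23 (-1.50), a decoy receptor of TRAIL in mice. Limma adjusted p-values of these 6 were at most 4.86e-06. Compared with Ctrl-AM, 8 were higher and 7 lower (27.7% and 27.1% of all genes), led by the same 6 genes. In Tumor-AM compared with Ctrl-AM 1 of 17 passed the threshold, a share near that of all genes (7.11% higher), Tnfrsf4 (the receptor OX40) at 1.04 ± 0.27 (limma adjusted p = 0.0384), a call that was lost without any 1 of the compared libraries other than Tumor-AM 2, without Tumor-macrophage 1 and with no filter (limma adjusted p of 0.0504 to 0.121). The median log2 changes of the 17 were 0.13 in Tumor-AM compared with Ctrl-AM and 0.03 in Tumor-macrophage compared with Tumor-AM.

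Cd40 was 1.63, 0.707 and 0.617 FPKM in the Ctrl-AM samples, 2.03, 1.63 and 1.79 in those of Tumor-AM and 69.0, 81.5 and 62.1 in Tumor-macrophage, a level that no AM sample approached. Tnfrsf14 was listed at 0 in all Ctrl-AM samples, at 0, 0.233 and 0.107 FPKM in Tumor-AM and at 11.1, 8.43 and 8.65 FPKM in Tumor-macrophage. With values at or near 0 in AMs, the size of its fitted change depends on the pseudocount. Its ligand LIGHT and the receptor were both highest in the same samples. For TACI (Tnfrsf13b), a receptor of BAFF and APRIL, values were 1.8, 2.11 and 3.03 FPKM in the Ctrl-AM samples, 4.15, 3.24 and 3.23 in those of Tumor-AM and 10.4, 8.23 and 8.28 in Tumor-macrophage, with a log2 change of 1.14 ± 0.16 in Tumor-macrophage compared with Tumor-AM (limma adjusted p = 0.00017). The BAFF receptor Tnfrsf13c (at most 2.49 FPKM) and BCMA (Tnfrsf17, at most 0.663 FPKM) did not pass the filter. Tnfrsf9, the receptor CD137, rose with its ligand, from 1.45, 0.178 and 0.694 FPKM in Tumor-AM to 2.07, 4.86 and 2.87 in Tumor-macrophage (log2 change 1.28 ± 0.29, limma adjusted p = 0.00376).

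Fn14 (Tnfrsf12a), the receptor of TWEAK, was 61.9 to 82.8 FPKM over all samples and was lower in TAMs than in control AMs by a log2 change of -0.29 ± 0.09 (limma adjusted p = 0.0172). Ltbr was 27.5 to 35.6 FPKM, with a change of 0.23 ± 0.09 in the same comparison (limma adjusted p = 0.0491). Of the receptors of TRAIL, Tnfrsf10b was 0.671 to 1.26 FPKM and did not pass the threshold in any comparison, while the decoy Tnfrsf23 was 9.14 to 12.8 FPKM in AMs and 2.96 to 3.53 in TAMs. Cd40, TACI and CD137 are also found on B cells, dendritic cells or T cells. The summed FPKM of 6 dendritic cell markers (Flt3, Zbtb46, Xcr1, Ccr7, Clec10a and Cd209a) was 14.4 to 17.4 in the Ctrl-AM samples, 6.66 to 14.4 in those of Tumor-AM and 42.7 to 77 in Tumor-macrophage. The sum of the B cell markers given above was also highest there, and that of the T cell markers was so only without Cd2. The part of such cells in these receptors was not tested. Reads of Tnfrsf22 and Tnfrsf23, near-identical in part, may have been divided between them, since 16.8% of the 75-base stretches of Tnfrsf23 occur in other genes.

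**Figure D5:**
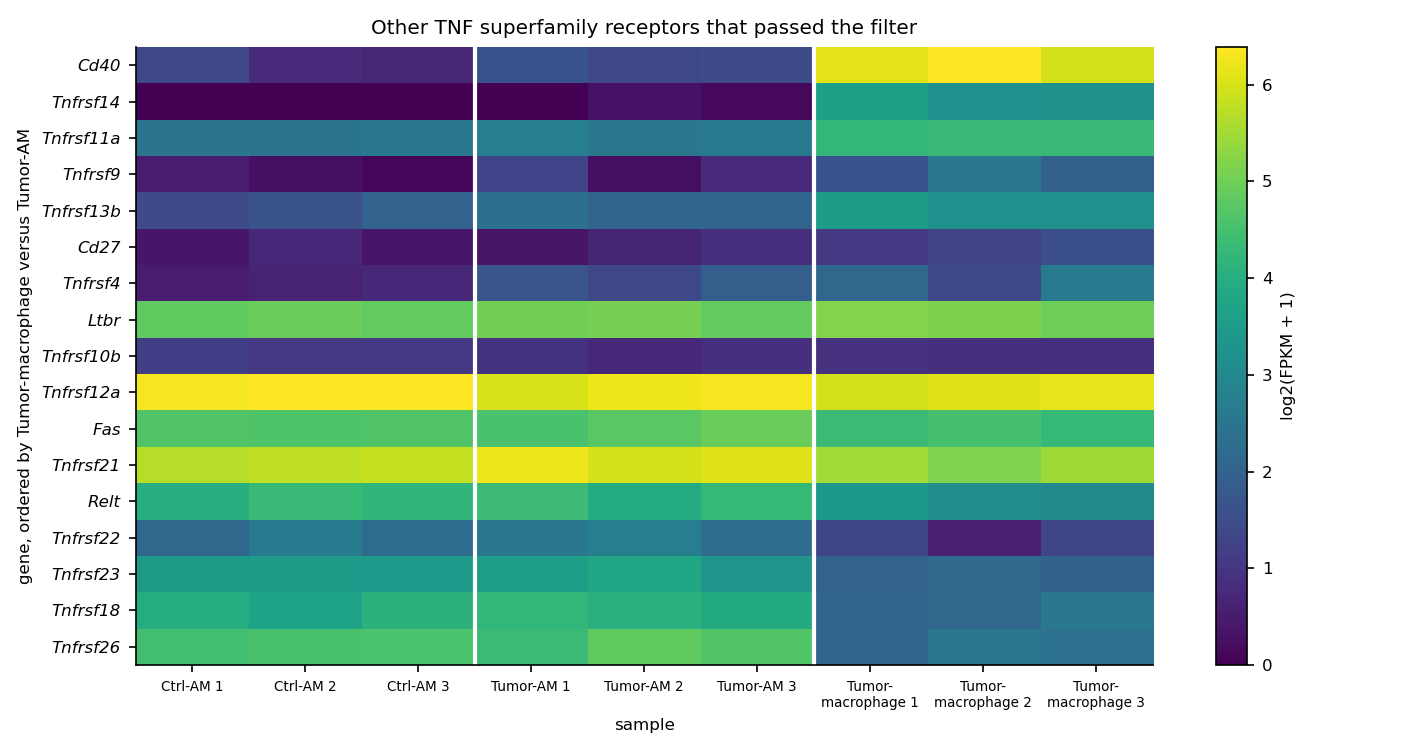
Level as log2(FPKM + 1) (colour) of the 17 other TNF superfamily receptors that passed the filter (y axis) in the 9 samples (x axis), ordered by the change in Tumor-macrophage compared with Tumor-AM. Cd40, Tnfrsf14 and Tnfrsf11a are brighter in the 3 Tumor-macrophage samples than in the AM samples, and Tnfrsf26, Tnfrsf18 and Tnfrsf23 are darker there.

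The 10 other ligands of the list (Lta, Tnfsf4, Tnfsf8, Tnfsf11, Tnfsf15, Tnfsf18, Cd40lg, Fasl, Cd70 and Eda) were near or at 0, and 0 passed the filter. Their summed level was 0.474 to 1.53 FPKM in the Ctrl-AM samples, 0.586 to 1.69 in those of Tumor-AM and 2.02 to 5.69 in Tumor-macrophage. The ligand of CD40 (Cd40lg) was at most 0.384 FPKM in any sample.

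Genes that carry the signal from TNF receptors were next compared. Of 28 such genes, all tested, 3 passed the threshold upwards in Tumor-AM compared with Ctrl-AM and 0 downwards, shares near those of all genes (7.11% and 3.18%). They were Tnfaip3, which encodes A20, an inhibitor of NF-kB signalling that is itself a known NF-kB target, and Mlkl and Ripk3, which carry out necroptosis. Tnfaip3 was 29.7, 35.5 and 28.9 FPKM in the Ctrl-AM samples and 86.8, 62.7 and 69.7 in those of Tumor-AM, a log2 change of 1.19 ± 0.18 (limma adjusted p = 0.00271). Ripk3 was 10.5, 10.5 and 8.06 FPKM compared with 17.9, 26.2 and 20.8, a change of 1.07 ± 0.16 (limma adjusted p = 0.00287), and Mlkl 3.11, 3.77 and 4.59 compared with 9.66, 11.2 and 10.5, a change of 1.25 ± 0.19 (limma adjusted p = 0.0029). In none of the 3 did the groups overlap. The adaptors and death domain proteins next to Tnfrsf1a (Tradd, Fadd, Ripk1 and Casp8) had log2 changes of -0.16, -0.17, 0.17 and -0.15 and did not pass the threshold.

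In Tumor-macrophage compared with Tumor-AM, 10 of the 28 were higher and 4 lower (24.2% and 24.4% of all genes). The largest increases were those of Traf1 (2.83), an adaptor of Tnfrsf1b, Cflar (1.25), an inhibitor of caspase 8, and Ripk3 (1.24). The largest decreases were those of Tradd (-0.70), the adaptor of Tnfrsf1a, Ikbkb (-0.64), a kinase that activates NF-kB, and Casp8 (-0.59), the caspase that starts apoptosis. Limma adjusted p-values of these 6 were at most 0.00146. Traf1 was 1.67, 1.43 and 2.59 FPKM in the AMs of tumor-bearing mice and 18.7, 20.9 and 18.6 in TAMs. Compared with Ctrl-AM, 11 were higher and 4 lower (27.7% and 27.1% of all genes), with the largest increases in Traf1 (3.48), Ripk3 (2.31) and Mlkl (1.58). The median log2 changes of the list were 0.05, 0.22 and 0.20 in the 3 comparisons.

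TNF leaves the cell surface when the protease ADAM17 cuts it, with the help of the proteins iRhom1 and iRhom2 (Rhbdf1 and Rhbdf2), and TIMP3 inhibits the cut. Adam17 was 38.3, 37.6 and 41.7 FPKM in the Ctrl-AM samples, 46.5, 45.4 and 37.3 in those of Tumor-AM and 82.4, 69.2 and 85.4 in Tumor-macrophage, and was higher in Tumor-macrophage than in Tumor-AM by 0.86 ± 0.11 (log2, limma adjusted p = 6.42e-05). Of the 5 genes of this list (with Adam10, a related protease), 3 were higher (Adam17, Rhbdf2 and Adam10) and 1 lower (Rhbdf1, -0.50, limma adjusted p = 0.0363) in that comparison, against 24.2% and 24.4% of all genes. In Tumor-AM compared with Ctrl-AM 1 was higher (Adam10, 0.47, limma adjusted p = 0.00376, with 7.11% of all genes higher and 3.18% lower) and 1 lower (Timp3, -0.97, limma adjusted p = 0.0227, at 0.16 to 2.66 FPKM in these 6 samples). The calls of Rhbdf1 and Timp3 were each lost under 6 alternatives (limma adjusted p of 0.0504 to 0.122), among them leaving out Tumor-AM 2, and that of Rhbdf2 was lost without Tumor-AM 1 or Tumor-AM 3.

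Of 8 genes for proteins that bind Tnf messenger RNA, 4 passed the threshold upwards and 1 downwards in Tumor-macrophage compared with Tumor-AM (24.2% and 24.4% of all genes). Zfp36 encodes tristetraprolin, which binds the nonamer printed above and speeds decay. It was the most abundant of the list, with 203, 221 and 233 FPKM in the Ctrl-AM samples, 231, 246 and 226 in those of Tumor-AM and 353, 286 and 357 in Tumor-macrophage, and was higher in Tumor-macrophage than in Tumor-AM by 0.49 ± 0.09 (log2, limma adjusted p = 0.00135). Its relative Zfp36l1 was higher by 2.22 ± 0.12 (limma adjusted p = 1.11e-07) and Zfp36l2 lower, with a change of -0.37 ± 0.07 (limma adjusted p = 0.000946). In Tumor-AM compared with Ctrl-AM 1 of the 8 passed the threshold (7.11% of all genes were higher), Zc3h12a, which encodes the ribonuclease regnase-1, at 0.68 ± 0.09 (limma adjusted p = 0.00146).

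Tnf, Tnfaip3 and Zfp36 belong to the genes that respond within minutes to handling and digestion at warm temperature, and lungs were digested at 37 °C. A list of 13 immediate-early and dissociation-responsive genes was therefore read beside them. Their summed FPKM was 1765 to 2147 in the Ctrl-AM samples, 2264 to 3051 in those of Tumor-AM and 2292 to 3191 in Tumor-macrophage. In Tumor-AM compared with Ctrl-AM 4 of 13 were higher and 0 lower (7.11% and 3.18% of all genes), with the largest changes in Ier3 (2.02), Junb (1.11) and Nr4a1 (0.92). In Tumor-macrophage compared with Tumor-AM 5 were higher and 3 lower (24.2% and 24.4% of all genes), with the largest changes in Hspa1a (2.25), Egr1 (1.73) and Hspa1b (1.65) and, downwards, in Btg2 (-0.76), Nr4a1 (-0.75) and Ier2 (-0.39, a call lost under most alternatives). The part of this response in the levels of Tnf, Tnfaip3 or the receptors was not tested.

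Genes whose pattern was most like that of Tnf were looked for among 5975 genes with a mean of at least 10 FPKM in their highest group. Over the 9 samples, the highest Pearson correlations of log2(FPKM + 1) were those of Nop14 (0.966), Peli1, which encodes an ubiquitin ligase of innate immune signalling (0.901), Nt5m (0.900), Mir703 (0.900) and Zcrb1 (0.895). As their selection implies, their group means moved with that of Tnf, lowest in Tumor-AM (Peli1 at 39.9, 35.5 and 40.1 FPKM). For Tnf itself this pattern did not pass the threshold. Tnfsf13 had the largest limma F statistic over the 3 groups among those of the 10 genes described here that were tested, other than Tnf. Its highest correlations were with Slpi (0.996), an inhibitor of proteases, Hpcal1 (0.996), Cd47 (0.996), Gpcpd1 (0.996) and Ggta1 (0.995), all at their lowest in Tumor-macrophage. The points share the 3 groups, and the values describe these samples only.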

How the data were processed

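RNA of the 9 sorted samples was sequenced by the study's authors on a HiSeq2500 (single-end reads of 75 bases, SMART-Seq HT and Nextera XT libraries). Per the labels and the study's methods, the authors aligned reads to mm10 with TopHat2 (2.1.1) and Bowtie2 and deposited FPKM values per gene from Cufflinks (the labels name Cuffdiff 2.2.1). The gene annotation, strand setting and treatment of reads with several matches are not given in the sources used here. Read counts were not used. Relative depth was estimated from the steps between low FPKM values, with 1352 to 1735 ratios to the first Ctrl-AM library in each other library. The scaling chosen put 46.1 to 51.07% of these low ratios on a whole-read grid. The median over all scalings tried was 0.26 to 0.3%. The absolute depth was set from 223 genes with 1 transcript, so that estimated reads are approximate.

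Values were tested as log2(FPKM + 1) with limma (3.58.1, R 4.3.3) with a mean-variance trend in all 9 samples and 3 groups, two-sided, after a filter of at least 1 FPKM in at least 3 samples, with Benjamini-Hochberg adjustment over 10686 genes and a threshold of 0.05. The procedure was tested on simulated data. Alternatives were a pseudocount of 0.1, no filter, a filter of 5 FPKM, 3 scalings, only the 2 groups compared, a constant prior variance, a replicate block and leaving out each library. All 10 genes were named. Of each wider list, the 3 largest increases and decreases past the threshold, and receptors, ligands or neighbours of the 10 genes, were named. Tradd, Fadd, Ripk1 and Casp8 were named together in Tumor-AM after their values were seen. 1 gene of the marker lists is not reported here. The genes and lists were chosen with earlier results of these data known. Motifs were searched on both strands in RefSeq windows (GRCm38.p6), and exons, 3′ ends and coordinates came from GENCODE vM21 (GRCm38).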

Additional observations from a re-analysis of the deposited data

How the results depend on the processing

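Of the 13 member changes past the threshold, 12 kept their direction and side of the threshold under all 18 alternatives or those that could be run. The exception was Tnfrsf1a in Tumor-AM compared with Ctrl-AM, with limma adjusted p-values of 0.228 after rescaling to TPM (0.14), 0.05 after quantile normalization (0.24) and 0.0678 with a constant prior variance, so that 1 member instead of 2 was called under each of these 3 settings and 1 to 2 when a library was left out. Among changes that did not pass, signs turned between Tumor-AM and Ctrl-AM for Ltb (TPM -0.041, and -0.19 to 0.30 leaving out a library), Tnfsf9 (-0.33 to 0.19 leaving out a library) and Tnfsf14 (pseudocount of 0.1 -0.084, TPM -0.028, quantile -0.056, and -0.28 to 0.32 leaving out a library). Tnfrsf1a in Tumor-macrophage compared with Ctrl-AM was -0.10 after TPM. The causes were not tested. All genes called in Tumor-AM compared with Ctrl-AM numbered 1309 after TPM and 535 at fewest, without Ctrl-AM 1. Samples with the same number correlated at -0.0615 to 0.159 in their deviations. Not every such pair was above 0.1 and no source ties them, so numbers were not taken to pair samples, although 7 of 9 correlated best with their own number, a hint from the data. Only Tumor-AM and Tumor-macrophage samples could share mice. Between these groups the same-numbered pairs correlated at 0.026, 0.0964 and 0.109, and the other pairs at -0.101 to 0.00617. With a replicate block the members called numbered 2, 6 and 6 in the 3 comparisons, and Tnfrsf1b passed in Tumor-macrophage compared with Tumor-AM (0.33, limma adjusted p = 0.048). Ltb, Tnfsf9, Tnfsf10 and Tnfsf14 rested on few reads in AMs, which limits their precision.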
